A study of Mus musculus with 6 samples.

Results

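Goblet cells are the secretory cells of the gut epithelium that make mucus. The goblet cell genes described here are 10 named genes, taken from the 53953 rows of each library by matching Ensembl identifiers to symbols. They comprise 6 secretory products, Muc2, Tff3, Spink4, Agr2, Fcgbp and Zg16, and 4 transcription factors, Atoh1, Spdef, Foxa3 and Creb3l1. They were chosen by name, with no threshold on the values, and all 10 had a row. RNA was sequenced from small-intestinal organoids, crypt-derived epithelial cultures, of wild-type C57BL/6 mice. In both groups the crypts came from the proximal small intestine, were embedded in Matrigel and were at passage 3 to 5, and RNA was taken on day 3 after passaging. The arachidonic acid group (3 libraries) had received this omega-6 fatty acid for 3 days before passaging, at a concentration not given in the sources used here. The vehicle group (3 libraries) had received 0.1% ethanol, the solvent that both groups shared. No source used here tells whether replicate libraries derive from separate cultures or mice, so a p-value reflects library-to-library spread alone, which may be technical.

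In the intestinal crypt, cells that escape Notch signalling express Atoh1 and enter the secretory lineage, which gives goblet, Paneth and enteroendocrine cells. Spdef then acts in the maturation of goblet and Paneth cells. Mature goblet cells fold and glycosylate the gel-forming mucin MUC2 in an enlarged endoplasmic reticulum and Golgi apparatus, and they release it with smaller proteins that bind to or protect the mucus.

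Values are read as FPKM, fragments per kilobase of transcript length scaled to the library's total. They follow the level of a gene between libraries, while a comparison between genes also rests on the annotated lengths. Each library stood for 35.6 to 50.8 M fragments. Arachidonic acid replicate 1 stood apart from its group. On the first principal component of all tested genes, which held 85.2% of the variance, it lay at 10.3, the other two arachidonic acid libraries at 54.6 and 58.1, and the vehicle libraries between -41.6 and -40.4. Results are therefore also given without that library. Of the 12913 genes that averaged 1 FPKM or more, limma called 19.4% lower and 20.8% higher with arachidonic acid, at a Benjamini-Hochberg adjusted p under 0.05. Log2 fold changes are arachidonic acid over vehicle on log2(FPKM + 1), a scale that understates the change of low genes.

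The goblet cell genes were lower with arachidonic acid or did not pass the test, and none was called higher. Of the 9 that reached the minimum mean, 6 fell (4 of 5 products and 2 of 4 factors) and 3 did not pass, beside the 19.4% of all tested genes that were called lower. Among these, Atoh1 reached that minimum only through the vehicle libraries, so it could enter the test only if it was higher there. The median log2 fold change of the 9 was -1.38, beside -0.03 for all tested genes. In 8 of the 10 every arachidonic acid library lay below every vehicle library, as did 27.5% of all tested genes, and in none was the order the opposite, which 27.6% of all tested genes showed. Without arachidonic acid replicate 1, 8 members were called lower, and so were 32.4% of all tested genes. Without vehicle replicate 1 only 3 were (Tff3, Spink4 and Fcgbp), beside 9.63% of all tested genes, and with no minimum level 5 were, beside 7.46%. In bulk RNA, fewer goblet cells and less of these transcripts per cell cannot be told apart.

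The sequence just before the start of 5 members is shown because these are the promoter regions of the genes whose levels are given next, among them Muc2 and all called members with an entry in the RefSeq promoter table. That table held 6 of the 10 members (GRCm38.p6). Each line gives the 250 bases upstream of the annotated start, 5′ to 3′ on the gene's strand. Capitals mark matches on either strand to CAGCTG (an E-box core of the kind that ATOH1 binds), TGTTTAC (forkhead), GGATGT (the ETS core of the SPDEF type) or TATAAA, a core promoter box. Muc2 lies on the plus strand at chr7:141690090-141690339, Agr2 on the plus strand at chr12:35992675-35992924 and Fcgbp on the plus strand at chr7:28070986-28071235. Spdef lies on the minus strand at chr17:27728952-27729201 and Atoh1 on the plus strand at chr6:64728875-64729124.
Muc2: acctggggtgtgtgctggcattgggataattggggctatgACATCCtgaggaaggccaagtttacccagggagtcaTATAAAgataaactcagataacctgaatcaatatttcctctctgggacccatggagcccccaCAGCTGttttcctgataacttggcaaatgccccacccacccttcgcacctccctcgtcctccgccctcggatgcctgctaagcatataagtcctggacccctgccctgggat
Agr2: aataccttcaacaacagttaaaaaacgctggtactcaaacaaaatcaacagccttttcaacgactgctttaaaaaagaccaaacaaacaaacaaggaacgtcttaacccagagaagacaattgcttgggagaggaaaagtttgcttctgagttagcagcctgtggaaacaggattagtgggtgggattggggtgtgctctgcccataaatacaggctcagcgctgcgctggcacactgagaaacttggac
Fcgbp: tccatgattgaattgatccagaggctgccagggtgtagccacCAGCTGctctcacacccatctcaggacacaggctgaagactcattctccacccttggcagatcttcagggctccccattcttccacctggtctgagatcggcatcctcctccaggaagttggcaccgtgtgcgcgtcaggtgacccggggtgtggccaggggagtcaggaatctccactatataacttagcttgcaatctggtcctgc
Spdef: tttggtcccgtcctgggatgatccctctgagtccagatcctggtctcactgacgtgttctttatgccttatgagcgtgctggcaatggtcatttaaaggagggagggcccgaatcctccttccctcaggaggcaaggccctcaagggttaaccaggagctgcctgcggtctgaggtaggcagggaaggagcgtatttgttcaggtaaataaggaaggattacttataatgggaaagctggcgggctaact
Atoh1: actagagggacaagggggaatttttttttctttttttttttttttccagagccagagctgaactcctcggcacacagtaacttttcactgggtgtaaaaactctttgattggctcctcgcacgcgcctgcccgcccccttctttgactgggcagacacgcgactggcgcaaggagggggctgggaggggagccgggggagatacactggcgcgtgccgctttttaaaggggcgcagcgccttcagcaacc
The window of Muc2 held CAGCTG 112 bases upstream of the start, TATAAA 174 bases upstream and, on the other strand, GGATGT 210 bases upstream. The window of Fcgbp held CAGCTG 208 bases upstream, and those of Agr2, Spdef and Atoh1 held none of the 4 motifs. The sixth matched member, Foxa3, which was not called, had TATAAA 36 bases upstream. Of all 32851 windows of this length in the table, 13.0% held CAGCTG, 12.4% TATAAA, 9.46% GGATGT and 3.17% TGTTTAC. A match describes letters only, and the GC content of the 6 windows ran from 44.4% (Agr2) to 68.8% (Foxa3).

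The products Spink4, Fcgbp, Agr2 and Tff3 fell. Spink4 (ENSMUSG00000028415, chromosome 4), a small secreted protein of the Kazal-type protease inhibitor family, had 267.0, 117.5 and 141.4 FPKM in the arachidonic acid libraries, against 969.1, 915.9 and 704.2 FPKM in the vehicle libraries. No arachidonic acid library reached the lowest vehicle library, and replicate 1 was the highest of its group. Spink4 averaged 175.3 ± 80.3 FPKM with arachidonic acid and 863.1 ± 140.1 FPKM with vehicle (SD, n = 3 each), with a log2 fold change of -2.37 (SE 0.30) and an adjusted p of 0.00238 by limma. It was the most abundant member in vehicle libraries, at rank 117 of the 12913 tested genes there, and was at rank 711 with arachidonic acid.

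Fcgbp (ENSMUSG00000047730, chromosome 7) encodes the large IgG Fc-binding protein, a constituent of intestinal mucus. It had 118.3, 31.1 and 35.8 FPKM in the arachidonic acid libraries, against 261.0, 300.7 and 255.4 FPKM in the vehicle libraries. The arachidonic acid libraries numbered 2 and 3 lay close together and replicate 1 lay between them and the vehicle libraries. The log2 fold change was -2.39 (SE 0.47, adjusted p = 0.00888 by limma), and it was -2.99 without arachidonic acid replicate 1.

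Agr2 (ENSMUSG00000020581, chromosome 12) encodes an endoplasmic reticulum protein of the disulphide isomerase family that mouse goblet cells need to produce MUC2. It had 77.97, 18.2 and 25.1 FPKM in the arachidonic acid libraries, against 160.9, 164.5 and 138.8 FPKM in the vehicle libraries. The order of libraries was that of Fcgbp, with replicate 1 at 50.4% of the vehicle mean and the other arachidonic acid libraries at 11.7% and 16.2%. The log2 fold change was -2.19 (SE 0.48, adjusted p = 0.0132 by limma). Without arachidonic acid replicate 1 it was -2.80, and without vehicle replicate 1 the adjusted p was 0.0545.

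Tff3 (ENSMUSG00000024029, chromosome 17), the trefoil peptide that goblet cells release with mucus, showed the most even fall of the 6 called members. It had 240.3, 190.5 and 238.5 FPKM in the arachidonic acid libraries, against 626.9, 615.0 and 498.2 FPKM in the vehicle libraries. The 3 arachidonic acid libraries stood at 41.4%, 32.8% and 41.1% of the vehicle mean, so replicate 1 did not stand apart for this gene. The log2 fold change was -1.38 (SE 0.13, adjusted p = 0.00103 by limma), and it lay between -1.48 and -1.27 with any 1 library left out.

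Zg16 (ENSMUSG00000049350, chromosome 7), a lectin-like protein that binds bacterial cell walls in mucus, did not pass the test. It had 10.3, 10.3 and 11.6 FPKM in the arachidonic acid libraries, against 13.2, 19.4 and 10.9 FPKM in the vehicle libraries. The groups overlapped, since vehicle replicate 3 lay below arachidonic acid replicate 3. The log2 fold change was -0.37 with a 95% confidence interval of -0.83 to 0.09 (adjusted p = 0.165 by limma), so a fall of the size seen for Tff3 lies outside this interval.

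Muc2 (ENSMUSG00000025515, chromosome 7), the gel-forming mucin itself, was barely covered in these values. It had 0.63 and 0.39 FPKM in arachidonic acid replicates 1 and 3 and was listed at 0 in replicate 2, against 1.146, 2.45 and 0.42 FPKM in the vehicle libraries. These values correspond to 41, 0 and 24 fragments in the arachidonic acid libraries and to 55, 115 and 21 fragments in the vehicle libraries. The groups overlapped, and the mean of 0.84 FPKM was under the minimum for testing. With no minimum, limma gave a log2 fold change of -0.74 with an adjusted p of 0.227. In GENCODE M21 the Muc2 locus carries a tag for a fragmented locus. It spans 64354 bases there, but its 8 transcripts are 241 to 2926 bases long, and 5 of them have an incomplete end. The part of these models in the low Muc2 level was not tested. Muc2 ranked last of the 10 members in both groups, and its level here rests on few fragments.

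**Figure D1:**
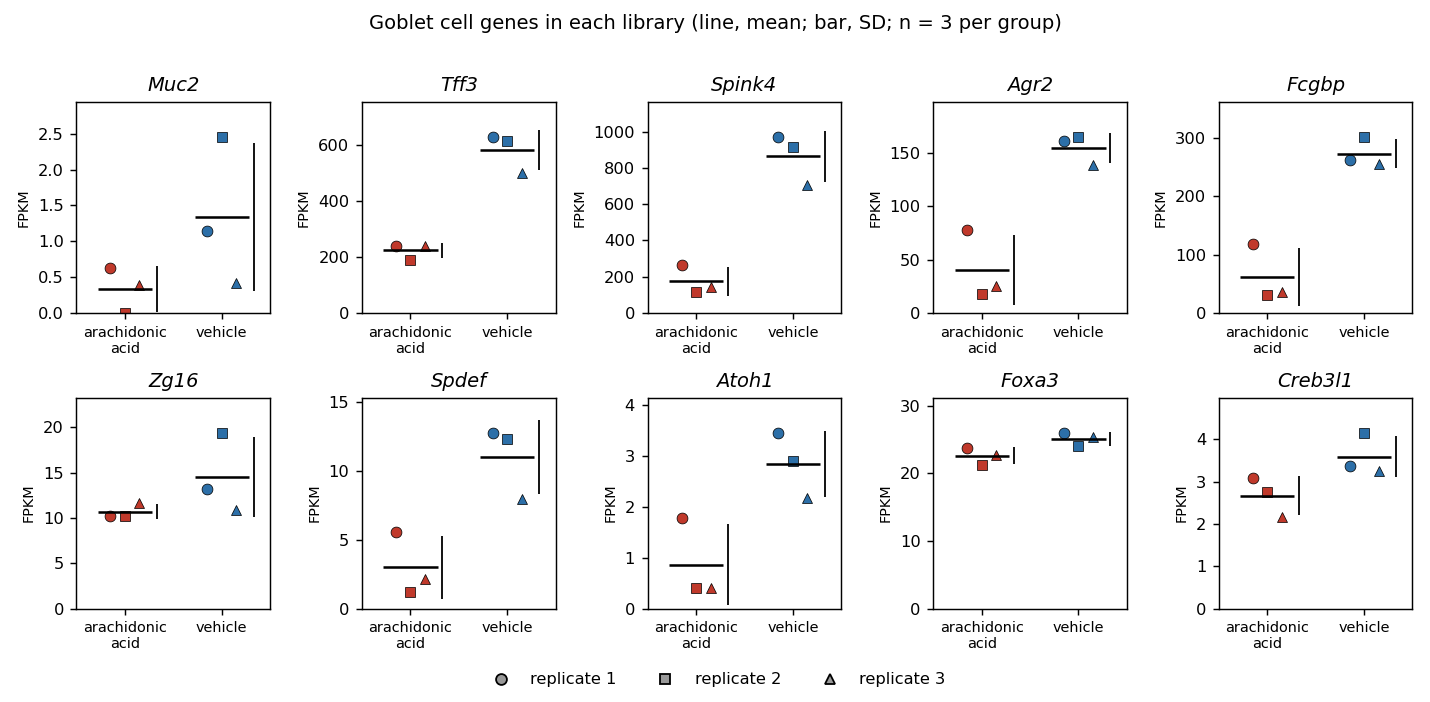
FPKM of the 10 goblet cell genes (vertical axes, each from 0) in the 3 arachidonic acid and 3 vehicle libraries; symbols give the replicate number, horizontal lines the mean and vertical bars the SD. The groups do not overlap for 8 genes and overlap for Muc2 and Zg16. Arachidonic acid replicate 1 is the highest of its group for every gene but Zg16, and stands well above the others for Spink4, Agr2, Fcgbp, Spdef and Atoh1.

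Among the transcription factors, Atoh1 and Spdef fell and Foxa3 and Creb3l1 did not pass the test. Spdef (ENSMUSG00000024215, chromosome 17), the ETS factor of goblet and Paneth cell maturation, had 5.59, 1.21 and 2.17 FPKM in the arachidonic acid libraries, against 12.8, 12.3 and 7.93 FPKM in the vehicle libraries. The groups were apart, and replicate 1 was again the highest of its group. The log2 fold change was -1.72 (SE 0.40, adjusted p = 0.0154 by limma), and -2.16 without arachidonic acid replicate 1. The adjusted p was 0.0529 without arachidonic acid replicate 3, 0.065 without vehicle replicate 1 and 0.0578 without vehicle replicate 2.

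Atoh1 (ENSMUSG00000073043, chromosome 6), the basic helix-loop-helix factor that commits crypt cells to the secretory lineage, had 1.77, 0.40 and 0.40 FPKM in the arachidonic acid libraries, against 3.45, 2.90 and 2.17 FPKM in the vehicle libraries. Replicates 2 and 3 of arachidonic acid stood at 14.01% and 14.03% of the vehicle mean and replicate 1 at 62.5%. The log2 fold change was -1.11 (SE 0.30, adjusted p = 0.0253 by limma), the highest adjusted p of the 6 calls. It did not pass with no minimum (0.0695) or with any 1 library but arachidonic acid replicate 1 left out (adjusted p 0.0501 to 0.0947). At these low levels the size depends on the scale: the log2 fold change was -2.01 by limma-voom on recovered fragments, which were 191, 30 and 41 with arachidonic acid and 273, 225 and 177 with vehicle.

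Foxa3 (ENSMUSG00000040891, chromosome 7), a forkhead factor of gut endoderm and of goblet cells, was the most abundant of the 4 factors. It had 23.7, 21.2 and 22.8 FPKM in the arachidonic acid libraries, against 25.96, 24.0 and 25.3 FPKM in the vehicle libraries. The groups did not overlap but were close, with a log2 fold change of -0.15 and a 95% confidence interval of -0.32 to 0.02 (adjusted p = 0.143 by limma). Creb3l1 (ENSMUSG00000027230, chromosome 2), a membrane-bound factor of the endoplasmic reticulum that acts in goblet cell differentiation in mice, had 3.08, 2.76 and 2.16 FPKM in the arachidonic acid libraries, against 3.36, 4.15 and 3.26 FPKM in the vehicle libraries. Its groups did not overlap either, and its log2 fold change was -0.33 with an interval of -0.67 to 0.01 (adjusted p = 0.109 by limma). Without arachidonic acid replicate 1 both passed, Foxa3 at -0.18 (adjusted p = 0.0499) and Creb3l1 at -0.41 (adjusted p = 0.0331). For both, the interval over all 6 libraries ends short of the falls of Spdef and Atoh1, but the difference between members was not tested.

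**Figure D2:**
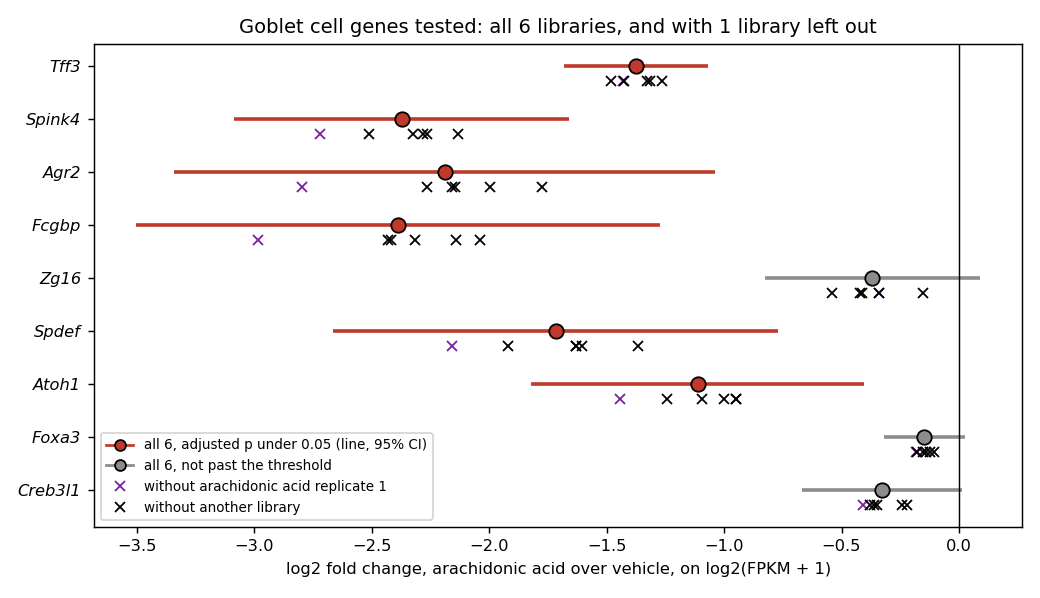
Log2 fold change of the 9 tested goblet cell genes, arachidonic acid over vehicle on log2(FPKM + 1), with its 95% confidence interval; red marks an adjusted p under 0.05. Crosses give the value with 1 library left out, purple where it is arachidonic acid replicate 1, and all lie below 0. Spink4, Agr2, Fcgbp, Spdef, Atoh1, Foxa3 and Creb3l1 are lowest without that library.

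In vehicle libraries the members ran in the order Spink4, Tff3, Fcgbp, Agr2, Foxa3, Zg16, Spdef, Creb3l1, Atoh1 and Muc2 by mean FPKM. Neighbours in that order did not overlap between libraries down to Zg16. Zg16 and Spdef overlapped, as did Creb3l1 and Atoh1, and Atoh1 and Muc2. With arachidonic acid Tff3 stood above Spink4 on average, the order was otherwise as in vehicle libraries, and Agr2 and Fcgbp came closer to the level of Foxa3. Of the tested genes, Fcgbp was at rank 2406 with arachidonic acid and 393 with vehicle, and Agr2 at rank 3592 with arachidonic acid and 799 with vehicle. Foxa3 kept nearly its place, at rank 5503 with arachidonic acid and 5050 with vehicle.

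**Figure D3:**
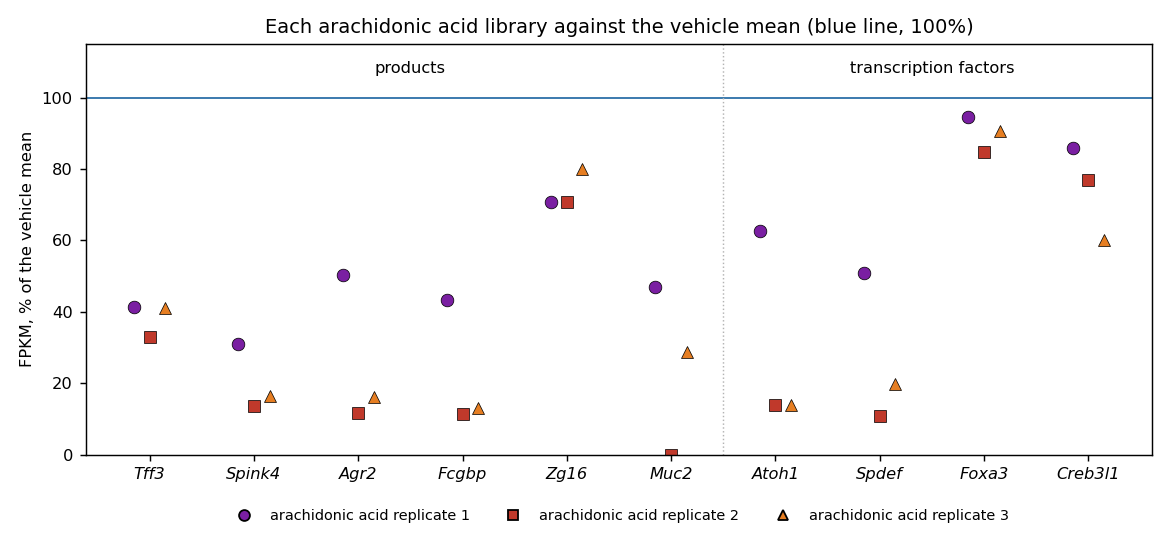
FPKM of each goblet cell gene in the 3 arachidonic acid libraries as a percentage of the vehicle mean (blue line at 100%), products on the left and transcription factors on the right. Replicates 2 and 3 lie between 10.95% and 19.7% for Spink4, Agr2, Fcgbp, Spdef and Atoh1, where replicate 1 lies between 30.9% and 62.5%, while Zg16, Foxa3 and Creb3l1 lie at 60.2% or above in all 3.

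How far replicate 1 had moved differed between members. Its position is given on the FPKM scale, where 0 is the vehicle mean and 1 the mean of the other arachidonic acid libraries. It was 0.929 for Tff3, 0.813 for Spink4, 0.645 for Fcgbp, 0.582 for Spdef, 0.577 for Agr2 and 0.436 for Atoh1. Over the 3052 genes that were called with a log2 fold change of at least 0.5 in either direction, the median position was 0.576, with quartiles of 0.41 and 0.774. Tff3 and Spink4 thus lay above the upper quartile and the other called members within the quartiles. Replicate 1 lay below every vehicle library for 9 of the 10 members, Muc2 being the exception. The spread within the arachidonic acid group followed, with a coefficient of variation of 12.7% for Tff3, 45.8% for Spink4, 77.1% to 81.0% for Spdef, Fcgbp and Agr2 and 92.8% for Atoh1, against 8.98% to 24.3% for these genes in vehicle libraries.

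Ratios between members within a library are free of the library's scaling, and they were chosen after the values were seen, so they carry no test. The ratio of Tff3 to Spink4 was 0.90, 1.62 and 1.69 in the arachidonic acid libraries, against 0.65, 0.67 and 0.71 in the vehicle libraries. The groups did not overlap, which shows that Spink4 fell further than Tff3 in each arachidonic acid library. For Agr2 and Fcgbp the ratio was 0.66, 0.58 and 0.70 in the arachidonic acid libraries, against 0.62, 0.55 and 0.54 in the vehicle libraries. These groups overlapped, with means of 0.65 with arachidonic acid and 0.57 with vehicle. The ratio of Spdef to Fcgbp overlapped too, at 0.05, 0.04 and 0.06 with arachidonic acid and 0.05, 0.04 and 0.03 with vehicle. The ratio of Spdef to Foxa3 was 0.24, 0.06 and 0.10 in the arachidonic acid libraries, against 0.49, 0.51 and 0.31 in the vehicle libraries, without overlap. Summed over the 6 products, the level was 714.5, 367.5 and 452.8 FPKM with arachidonic acid, against 2032, 2018 and 1608 FPKM with vehicle. Tff3 made up 33.6%, 51.8% and 52.7% of that sum with arachidonic acid and 30.9%, 30.5% and 31.0% of it with vehicle.

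**Figure D4:**
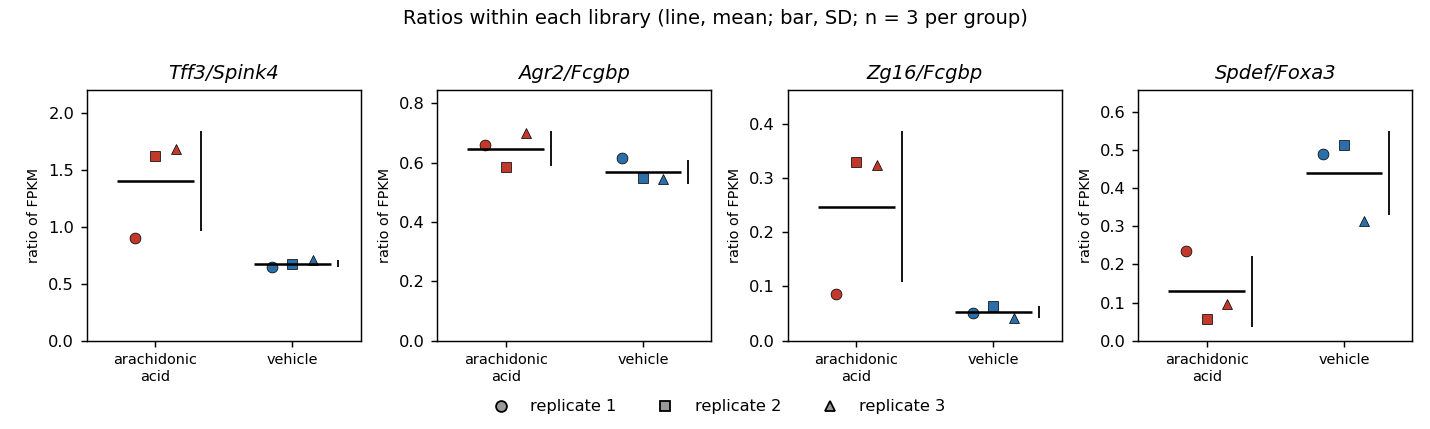
Ratio of FPKM of a pair of goblet cell genes within each library, arachidonic acid left of vehicle; symbols give the replicate number, horizontal lines the mean and vertical bars the SD. Tff3/Spink4 and Zg16/Fcgbp are higher and Spdef/Foxa3 is lower in every arachidonic acid library than in any vehicle library, while Agr2/Fcgbp overlaps between groups.

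Across the 6 libraries, which share the difference between groups and the place of replicate 1, log2(FPKM + 1) of Agr2 correlated at 0.996 with Fcgbp, 0.988 with Spdef and 0.981 with Atoh1 (Pearson's r, a description). Spdef and Atoh1 correlated at 0.984, and Tff3 and Spink4 at 0.977. Zg16 went least with the others, from 0.297 with Foxa3 to 0.695 with Tff3, apart from 0.915 with the sparsely covered Muc2. Of 9900 other genes that averaged 5 FPKM or more, those most like Tff3 were Guca2a (0.999), which encodes guanylin, Atp5h (0.999) and Baiap2l2 (0.998). Those most like Spdef were Srsf7 (0.997), Gtf2h3 (0.997) and Clps (0.997), and those most like Atoh1 were Ercc8 (0.998), Urm1 (0.996) and Lyz1 (0.996). Those most like Muc2 were Lin37 (0.989), Ttll3 (0.971) and Trmt44 (0.966), a likeness that rests on at most 115 Muc2 fragments in a library.

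Other goblet cell genes and the mucus pathway were taken from lists whose counts are read beside the 19.4% lower and 20.8% higher of all tested genes. Of 30 other goblet markers 23 were tested, of which 11 were called lower and 6 higher, with a median log2 fold change of -0.60 beside -0.03 for all tested genes. Of the 23, 3 (Ccl9, Capn9 and Ramp1) reached the minimum only through the vehicle libraries, which fixed their direction. Guca2a, the guanylate cyclase ligand guanylin, had 19.7, 15.2 and 18.3 FPKM with arachidonic acid, against 52.2, 49.4 and 40.3 FPKM with vehicle. Its log2 fold change of -1.37 (adjusted p = 0.00108 by limma) was close to that of Tff3. Also lower were Tpsg1, a tryptase (-2.58), Ccl9, a chemokine (-2.09), and Ang4, an antimicrobial ribonuclease that Paneth cells also make (-1.56), with adjusted p-values of 0.00254 to 0.00365 by limma.

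The markers called higher were led by Gcnt3, the enzyme that builds branched mucin O-glycans. It had 13.2, 11.7 and 9.999 FPKM with arachidonic acid, against 3.02, 3.19 and 3.11 FPKM with vehicle, a log2 fold change of 1.61 (adjusted p = 0.000544 by limma). Hgfac, the activator of hepatocyte growth factor (2.87), Oit1 (2.02) and Bace2, an aspartyl protease (1.18), followed with adjusted p-values of 0.00363 to 0.00774 by limma. Clca1 and Retnlb, also on this list, were low. Clca1 had 1.94, 1.04 and 0.41 FPKM with arachidonic acid and 0.39, 0.43 and 0.24 FPKM with vehicle. Its mean was higher with arachidonic acid (1.13 FPKM, against 0.35 FPKM with vehicle), but the groups overlapped. Retnlb was listed at 0 in every library but arachidonic acid replicate 1 (0.11 FPKM). Neither reached the minimum for testing.

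All 28 genes of the mucus secretory machinery were tested, of which 6 fell and 3 rose, with a median log2 fold change of -0.09. Ern2, the endoplasmic reticulum stress sensor of mucus-producing epithelium, had 2.12, 1.08 and 1.56 FPKM with arachidonic acid, against 4.59, 4.86 and 3.25 FPKM with vehicle (log2 fold change -1.02, adjusted p = 0.00848 by limma). Creb3l4 (-0.88), Ostc, a subunit of the oligosaccharyl transferase (-0.55), and Xbp1, the factor spliced on such stress (-0.39), fell with adjusted p-values of 0.00558 to 0.00908 by limma. Qsox1, a secreted sulfhydryl oxidase, was higher at 79.6, 150.4 and 129.9 FPKM with arachidonic acid, against 36.6, 40.6 and 33.2 FPKM with vehicle (log2 fold change 1.63, adjusted p = 0.00304 by limma). Kdelr3, a receptor that returns proteins to the endoplasmic reticulum, rose by 0.76 and the chaperone gene Hyou1 by 0.36 (adjusted p = 0.0127 and 0.029 by limma). The call of Hyou1 was lost with any 1 library but arachidonic acid replicate 1 left out (adjusted p 0.0667 to 0.0987). Without arachidonic acid replicate 1, 11 of this list were called lower and 6 higher, and with FPKM rescaled to TPM 8 were called higher.

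Of 30 genes of mucin O-glycosylation 23 were tested, with 9 called higher, 3 called lower and a median log2 fold change of 0.17. Galnt3, which adds the first sugar of these glycans, had 71.7, 84.5 and 76.3 FPKM with arachidonic acid, against 42.2, 39.9 and 40.8 FPKM with vehicle (log2 fold change 0.90, adjusted p = 0.000831 by limma). Cmas, which activates sialic acid, rose by 1.24 and C1galt1, the core 1 synthase, by 0.59, beside Gcnt3 above (adjusted p = 0.00188 and 0.0031 by limma). The lower calls were the sialyltransferase gene St3gal4 (-0.69), the sialic acid transporter gene Slc35a1 (-0.22) and Gcnt4 (-0.57), with adjusted p-values of 0.0399 to 0.0459 by limma. None of these lower calls passed after rescaling to TPM or with any 1 library but arachidonic acid replicate 1 left out, when the list had 0 lower calls.

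Among 14 other mucin, trefoil and AGR genes 5 reached the minimum, with 2 lower and 1 higher and a median log2 fold change of -0.31. Agr3, the paralogue and neighbour of Agr2, had 18.6, 1.39 and 1.83 FPKM with arachidonic acid, against 36.1, 34.6 and 37.1 FPKM with vehicle. Its log2 fold change was -2.85 (adjusted p = 0.024 by limma), with adjusted p 0.0697 to 0.0796 when any 1 library but arachidonic acid replicate 1 was left out. The transmembrane mucin gene Muc13 had 77.6, 35.3 and 32.5 FPKM with arachidonic acid, against 111.3, 135.4 and 118.3 FPKM with vehicle (log2 fold change -1.42, adjusted p = 0.0131 by limma, 0.0516 without vehicle replicate 2). Muc3, another transmembrane mucin gene, went the other way at 14.6, 38.7 and 33.6 FPKM with arachidonic acid, against 1.18, 2.61 and 1.201 FPKM with vehicle (log2 fold change 3.42, adjusted p = 0.00161 by limma). Its split from the like gene Muc3a by the authors' counting is uncertain. Muc5ac was listed at 0 in all 6 libraries, Tff1 reached at most 0.35 FPKM, and Tff2 had 0.30, 0.87 and 0.78 FPKM with arachidonic acid and was listed at 0 in each vehicle library.

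Of 20 secretory lineage factors 17 were tested, of which 7 fell and 1 rose, with a median log2 fold change of -0.21. Dll1, the Notch ligand of secretory precursors, had 15.3, 5.22 and 4.48 FPKM with arachidonic acid, against 22.5, 21.7 and 23.1 FPKM with vehicle (log2 fold change -1.51, adjusted p = 0.022 by limma). Neurog3, the enteroendocrine commitment factor, had 9.28, 1.11 and 1.07 FPKM with arachidonic acid, against 22.6, 20.2 and 18.1 FPKM with vehicle (log2 fold change -2.58, adjusted p = 0.0155 by limma). In both, as for Atoh1, arachidonic acid replicate 1 lay between the other libraries of its group and the vehicle libraries. Insm1 fell by 1.91 and Sox4 by 0.86 on the log2 scale, while Cbfa2t3 rose by 0.75 (adjusted p 0.00671 to 0.0111 by limma). For Hes1, the Notch target that represses Atoh1, the log2 fold change was -0.30 (adjusted p = 0.0692 by limma; -0.42 and 0.000604 without arachidonic acid replicate 1, and 0.0424 with quantile normalization), and for Klf4 it was 0.20 (adjusted p = 0.273 by limma). Gfi1, which acts after Atoh1, was under the minimum, at 0.62, 0.09 and 0.26 FPKM with arachidonic acid and 1.07, 1.21 and 1.13 FPKM with vehicle. With 1 library other than arachidonic acid replicate 1 left out, 1 to 5 of this list were called lower. The calls of Dll1 (adjusted p 0.0646 to 0.0749) were lost each time, that of Neurog3 without arachidonic acid replicate 3 (0.0504), vehicle replicate 1 (0.0625) and vehicle replicate 2 (0.0528), and that of Sox4 without vehicle replicate 1 (0.0505).

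Markers of other epithelial types moved beside the goblet cell genes. All 15 tested enteroendocrine markers fell, with a median log2 fold change of -1.74, and 5 of them reached the minimum only through the vehicle libraries. The summed level of all 19 was 136.5 to 183.5 FPKM with arachidonic acid and 699.3 to 840.0 FPKM with vehicle. Of 15 tested Paneth markers 8 fell and 2 rose (1 of these, Pla2g2a, reaching the minimum only through the arachidonic acid libraries), with a median of -1.18 and a summed level of 739.3 to 1253 FPKM with arachidonic acid and 2204 to 3241 FPKM with vehicle. Lyz1, the Paneth lysozyme gene, had 130.2, 36.5 and 44.4 FPKM with arachidonic acid, against 244.8, 202.0 and 153.7 FPKM with vehicle (adjusted p = 0.0259 by limma, 0.0547 to 0.0952 with any 1 library but arachidonic acid replicate 1 left out). With arachidonic acid replicate 2 or 3 or vehicle replicate 1 or 2 left out, 3 or 4 Paneth markers were called lower. Of 20 enterocyte markers 10 fell and 2 rose, with a median of -1.11, and between 1 and 6 fell with 1 library other than arachidonic acid replicate 1 left out. Of the 20, Lct reached the minimum only through the vehicle libraries. The summed level was 2764 to 6196 FPKM with arachidonic acid and 2294 to 2830 FPKM with vehicle, but without Fabp1, the fatty acid-binding protein gene, it was 2102, 1322 and 1147 FPKM with arachidonic acid, against 1982, 2419 and 2198 FPKM with vehicle. The groups overlapped both with and without this gene, and each arachidonic acid library stood lower against the vehicle libraries without it.

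Of 18 tuft markers 4 were tested and 1, Plcg2, was called higher; it and 2 of the others reached the minimum only through the arachidonic acid libraries, which fixed their direction. Its call was lost with any 1 library but arachidonic acid replicate 1 left out (adjusted p 0.0832 to 0.129). Of 16 markers of the mucous cells of the stomach, 4 were tested. Vsig1 and Psca, called higher, reached the minimum only through the arachidonic acid libraries and Gkn3, called lower, only through the vehicle libraries, so the minimum fixed their direction. The fourth, Anxa10, was called higher without this limit. The summed level of these stomach markers was 69.8 to 91.9 FPKM with arachidonic acid and 5.14 to 7.23 FPKM with vehicle. Most of the first was Anxa10, without which the sums were 15.9 to 26.6 FPKM with arachidonic acid and 3.53 to 4.62 FPKM with vehicle, while the defining gastric genes Muc5ac and Sox2 were listed at 0 throughout. Of 20 mesenchymal, immune and endothelial markers, 19 were under 1 FPKM in every library, and Lum and Cdh5 were listed at 0. Their summed level was 1.66 to 3.53 FPKM with arachidonic acid and 5.00 to 7.22 FPKM with vehicle. Most of the vehicle sum was Vim, which had 1.46, 0.62 and 0.37 FPKM with arachidonic acid, against 4.51, 5.66 and 4.13 FPKM with vehicle. Vim, called lower, was the only marker of this list that was tested. It reached the minimum only through the vehicle libraries, which fixed its direction. The part of a changed mixture of cell types in the values of the goblet cell genes was not tested.

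**Figure D5:**
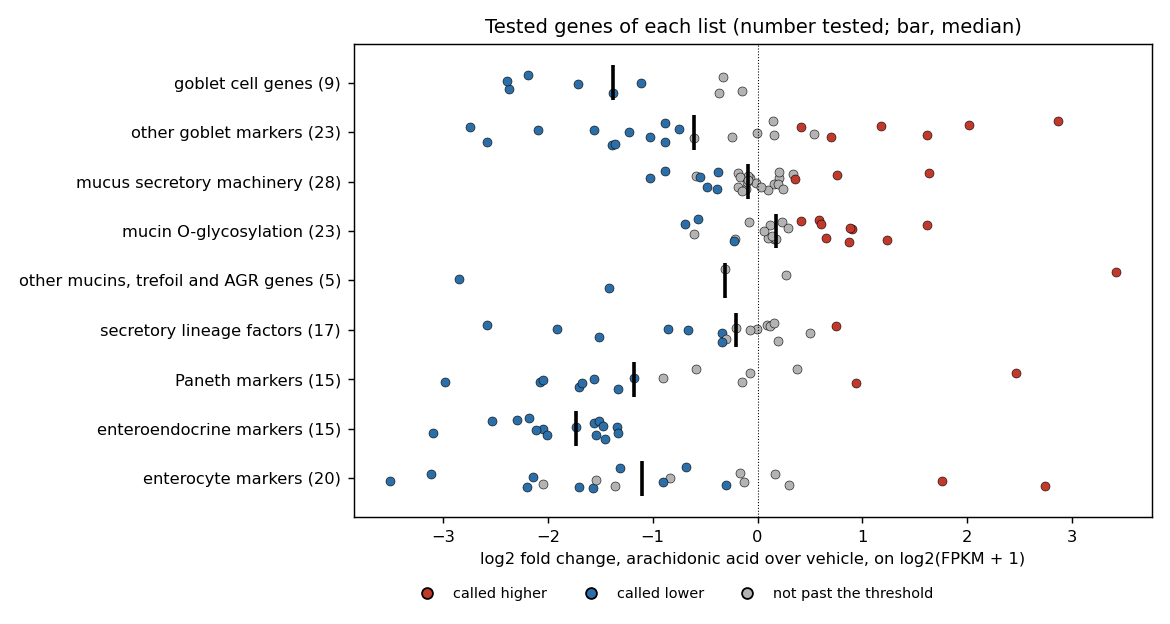
Log2 fold change, arachidonic acid over vehicle on log2(FPKM + 1), of each tested gene of the goblet cell genes and of 8 related lists; blue marks genes called lower, red genes called higher, grey genes not past the threshold, and black bars the median. The goblet cell genes, Paneth, enteroendocrine and enterocyte markers have medians between -1.74 and -1.11, while the mucus secretory machinery and O-glycosylation genes centre near 0.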

How the data were processed

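The authors deposited 1 table of values per library, read here as FPKM from the values themselves, since the labels name no unit. Low values multiplied by the mean transcript length in GENCODE M21 fell within 0.1 of whole multiples of 1 step per library for 96.3% to 96.7% of values under 100 fragments, which gave the fragments and depth quoted. Per the submitters' processing notes, the tools were featureCounts 1.5.0-p3, HISAT2 2.0.5 and StringTie 1.3.3b. The sources used here do not give what each did, the annotation, the strand setting or the genome build. Symbols were found for 53274 of 53465 Ensembl identifiers.

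Genes averaging 1 FPKM or more were tested with limma 3.58.1 (R 4.3.3) on log2(FPKM + 1) with a trend in variance, two-sided, with Benjamini-Hochberg adjustment over all 12913 and a threshold of 0.05. The replicate number was no term in the model. The test was tried on simulated data first. Tables and figures were made with Python 3.11.15, numpy 2.4.6, pandas 2.3.3 and matplotlib 3.10.9. Named genes were all members, up to 4 genes per list and direction with the smallest p, 10 genes always, and the 3 genes most like each of 4 members. The members and lists were chosen with earlier results of these data known. Alternatives were a pseudocount of 0.1, no minimum, a minimum of 5 FPKM, quantile normalization, TPM rescaling, limma-voom on the recovered fragments, median-of-ratios scaling, a replicate block and each library left out.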

Additional observations from a re-analysis of the deposited data

How the results depend on the processing

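No goblet cell gene or other named gene with a test changed the sign of its log2 fold change under any setting tried. Under the settings that kept all 6 libraries, 5 or 6 members were called lower and 0 higher, 5 with no minimum (without Atoh1) and 5 with a minimum of 5 FPKM, under which Atoh1 and Creb3l1 were not tested. With each library left out in turn, 3 to 8 members were called lower, the most without arachidonic acid replicate 1 and the fewest without vehicle replicate 1. Over all genes 1712 to 3554 were then called higher and 1245 to 4192 lower, and in the 5 mucus and lineage lists together 14 to 28 higher and 12 to 37 lower, beside 19 higher and 27 lower with all 6 libraries. Where 1 arachidonic acid or vehicle library is left out, the group has 2 libraries, assumed to vary like the other group. With a replicate block, 6 members were called lower, and 2263 genes higher and 1998 lower over all genes, beside 2690 and 2502 without it; in the lists 18 were higher and 25 lower, and the 3 lower calls of mucin O-glycosylation were lost (St3gal4 0.0686, Slc35a1 0.0751, Gcnt4 0.0905). Deviations from the group means of libraries with the same number correlated at -0.08, 0.21 and -0.06 across genes. For libraries with different numbers the correlations ran from -0.18 to 0.19. With 3 libraries per group this cannot tell whether the numbers pair libraries, and the main model did not take them as pairs. Scaling moved the median log2 fold change of all genes by less than 0.1 (-0.06 with quantile normalization and 0.03 with TPM, against -0.03). The balance of calls over all genes turned with quantile normalization (2435 higher, 2977 lower) and without arachidonic acid replicate 1 (3554 higher, 4192 lower). Of the counts of single lists under alternatives, 247 stayed within 1.5 times the main count and 61 did not. Depth limits Muc2, with at most 115 fragments per library, and Atoh1, with 30 in arachidonic acid replicate 2.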

Other observations

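The nearest protein-coding gene on each side of the members in GENCODE M21, 20 neighbours in all, held 11 tested genes, of which 2 were called lower and 2 higher, close to the 19.4% lower and 20.8% higher of all tested genes. The lower ones flank Agr2. Beside its paralogue Agr3, Tspan13, a tetraspanin gene, had 87.0, 55.3 and 52.3 FPKM with arachidonic acid, against 110.8, 100.7 and 108.6 FPKM with vehicle (log2 fold change -0.75, adjusted p = 0.02 by limma, 0.0547 to 0.0749 with any 1 library but arachidonic acid replicate 1 left out). It was also on the list of goblet markers. The higher ones were B4galt1, a galactosyltransferase gene next to Spink4, with 25.8, 34.6 and 27.8 FPKM with arachidonic acid, against 18.6, 18.3 and 19.2 FPKM with vehicle (log2 fold change 0.62, adjusted p = 0.00706 by limma), and D17Wsu92e next to Spdef (0.38, adjusted p = 0.0152 by limma, 0.0608 without arachidonic acid replicate 3, 0.0578 without vehicle replicate 1 and 0.0573 without vehicle replicate 2). The neighbours were chosen after the members' values were seen.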
